A study of Mus musculus with 2 samples.

Results

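The respiratory chain genes described here were taken from the gene list of the files by the start of their symbols. Nuclear genes were those starting with Ndufa, Ndufb, Ndufc, Ndufs, Ndufv, Sdha to Sdhd, Uqcr, Cox4, Cox5, Cox6, Cox7, Cox8 or Atp5, and mitochondrially encoded genes those starting with mt-Nd, mt-Co, mt-Cytb or mt-Atp. The rule found 114 of the 33696 genes. Of these, 101 are nuclear, with 39 in complex I, 4 in complex II, 8 in complex III, 21 in complex IV and 17 in complex V, and a further 12 assembly factors (Ndufaf and Sdhaf genes) that share the prefixes. The 21 counted under complex IV include Cox5b-ps, whose symbol marks a pseudogene. The other 13 are mitochondrially encoded, with 7 in complex I, 1 in complex III, 3 in complex IV and 2 in complex V, and they are all the mitochondrial genes that the files list. The cells came from LLC (Lewis lung carcinoma) tumours and are labelled as tumour-infiltrating lymphocytes. The WT library was made from wild-type animals and the KO library from animals lacking the phosphatase gene Dusp2 (Dusp2-/-), 1 library each, with the 10x 3' kit, version 3.1. The labels give no age, sex or strain, and do not say how many animals a library holds, how the cells were sorted or which part of Dusp2 was deleted. With 1 library per genotype there was no replicate and no test: each difference below compares 2 libraries, and every interval covers counting error only.

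The respiratory chain is built in the inner mitochondrial membrane. Complex I takes electrons from NADH and complex II (succinate dehydrogenase) from succinate, complex III passes them to cytochrome c, and complex IV hands them to oxygen. The proton gradient that complexes I, III and IV build drives ATP synthase, complex V. Most subunits are transcribed in the nucleus and imported, while the mitochondrial DNA encodes a small core of complexes I, III, IV and V and no subunit of complex II, so a working chain needs transcripts of both genomes. In T cells, activation is known to be accompanied by mitochondrial growth, and long stimulation in tumours by impaired respiration.

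The nuclear members lie on 19 chromosomes, with at most 10 on any of them, chromosome 7, and were not chosen by any shared control element. Promoters from RefSeq (GRCm38.p6, 250 bases before to 50 after the start) were found for 82 of the 101. They held the core GCGCATGC, a match to the binding site of the nuclear respiratory factor NRF1, on either strand in 12 of 82 (14.6%), against 2.80% of 27025 promoters of all genes. The ETS core CCGGAAG, which GABPA can bind, was in 21 (25.6%, against 9.12%), the YY1 core AAGATGGCG in 7 (8.54%, against 1.49%) and the ESRRA site TCAAGGTCA in 2 (2.44%, against 0.407%). The TATAAA box was in 9, against 14.2% of all promoters. All motifs were searched on both strands. The NRF1 core on one strand overlaps the core on the other wherever it is followed by another GC. The members' promoters also had a median GC content of 58.7%, against 52.7% for all promoters, and a median of 20 CG dinucleotides, against 7, and the motif shares were not matched for that. The 7 windows below are shown as examples of the NRF1 core, whose share was higher among members' promoters than among all promoters, in genes of all 5 complexes and 1 assembly factor. The NRF1 core is in capitals, in reading direction in the opening 5 and as its reverse complement in the last 2.
Atp5g2 (GRCm38.p6 chr15:102671071-102671100, minus strand): tggctccggccGCGCATGCgcagagccttc
Cox6a1 (chr5:115349102-115349131, minus strand): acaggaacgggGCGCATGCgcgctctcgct
Ndufa11 (chr17:56717691-56717720, plus strand): acctgcactgcGCGCATGCgcgcacgcctt
Ndufaf4 (chr4:24897959-24897988, plus strand): cccagatgtctGCGCATGCgcctgtgcgga
Uqcrc1 (chr9:108936667-108936696, plus strand): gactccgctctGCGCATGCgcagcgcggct
Ndufa6 (chr15:82354356-82354385, minus strand): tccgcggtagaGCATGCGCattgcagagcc
Sdhb (chr4:140961206-140961235, plus strand): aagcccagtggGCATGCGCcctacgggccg
The core begins 42 bases before the start of Atp5g2, 162 before that of Cox6a1, 60 before that of Ndufa11, 113 before that of Ndufaf4, 83 before that of Ndufa6 and 54 before that of Sdhb. In Uqcrc1 it begins 30 bases after the start. A match of letters is a description of the sequence and was not tied to binding in these cells.

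The libraries differed in more than genotype. The WT library held 9890 barcodes with a median of 8496 UMIs (unique molecular identifiers, the counted molecules) and the KO library 12744 with 4754, and their labels disagree on the molecule, polyA RNA in KO against total RNA in WT. After filtering, 8995 WT and 11353 KO cells were kept, and 31 barcodes occurred in both libraries. Cells were gated on marker genes and each class is named after its markers, as in "CD8 T-like". Lymphocytes were not the only cells: 1005 WT and 874 KO cells were tumour-like, and 3530 and 1176 macrophage-like. B-like cells numbered 6 in WT and 3594 in KO, and Igkc, an antibody light chain gene, was higher in the other classes of KO as well, at 632 CPM in CD8 T-like cells against 1.92 in WT. Dusp2 itself, the check of the labels, was 566 CPM in CD8 T-like cells of WT and 5.99 in those of KO, 1199 and 2.61 in NK-like cells, 57.9 and 3.72 in macrophage-like cells, and 79.8 and 75.5 in tumour-like cells, which belong to the transplanted line and not to the host.

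Levels are given as CPM, the UMIs of a gene or set per 1000000 UMIs of all cells of the class. Those of the nuclear set, summed over its 101 genes, differed little among most classes. Tumour-like cells were highest of the 11 classes with at least 50 cells in each library, at 22576 CPM in WT and 22311 in KO. Mature dendritic-like cells were lowest in WT at 14172, with 15044 in KO, and fibroblast-like cells were lowest in KO at 14023, with 17575 in WT. The span from lowest to highest was 1.59-fold in each library. Among the smaller classes, type 1 dendritic-like cells stood next to the tumour-like cells, at 21993 in WT and 21515 in KO. Plasma-like cells, present in KO only, were far lower at 10122, and neutrophil-like cells, of which there were 34 and 20, were at 5550 and 10635. The order of the 11 classes was alike in both libraries (Spearman's rho 0.73 over 11 classes, which share their library and its depth, so no p is given).

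The mitochondrially encoded set, summed over 13 genes, spread more widely and in another order. Most T-like classes were at the top and tumour-like cells, highest for the nuclear set, were near the bottom. In WT it ran from 10704 CPM in mature dendritic-like cells to 20815 in other T-like cells (T cells that met no subset gate), a span of 1.94-fold. In KO it ran from 12457 in fibroblast-like cells to 26259 in gamma-delta T-like cells, a span of 2.11-fold. B-like cells of the KO library were higher still, at 31988. The rho between the libraries was 0.89 over 11 classes. As a ratio, the WT library had 0.556 mitochondrially encoded UMIs per nuclear-set UMI in tumour-like cells, 0.836 in macrophage-like cells, 1.04 in CD8 T-like cells and 1.31 in other T-like cells. In the KO library, B-like cells reached 1.74 and tumour-like cells 0.570. The plot of set levels by class shows both orders side by side.

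**Figure D1:**
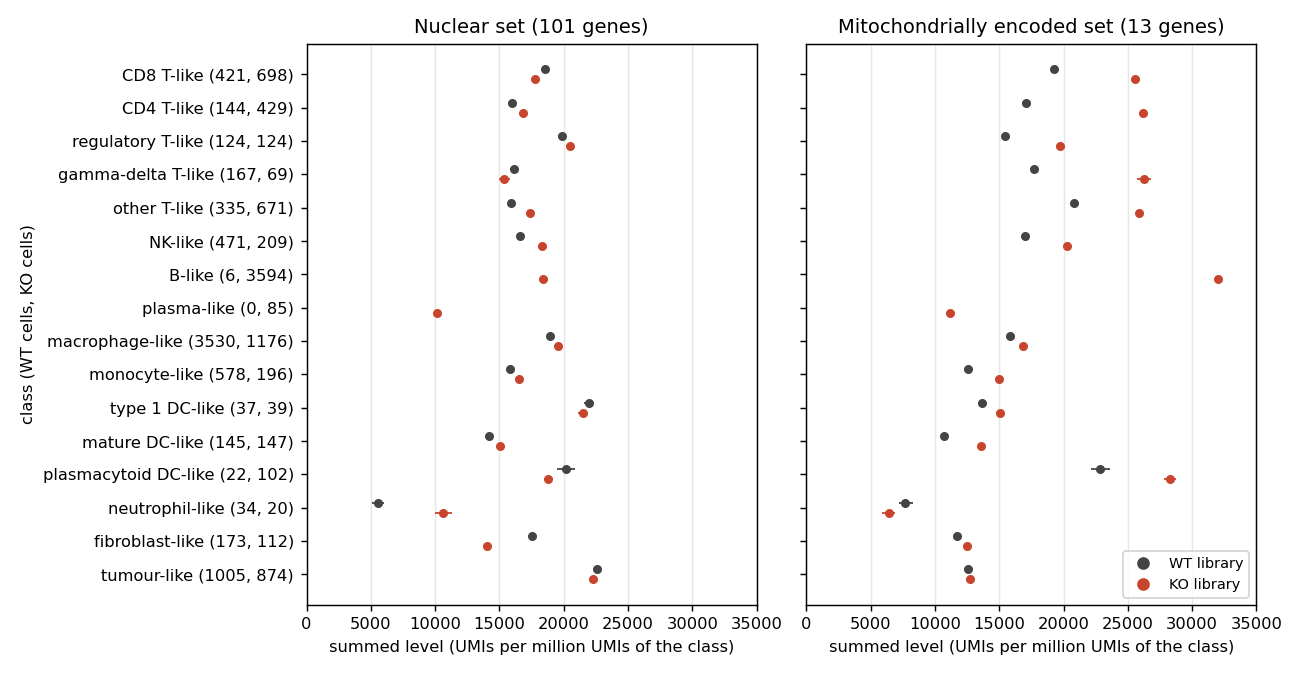
Summed level of the nuclear set (left) and the mitochondrially encoded set (right), in CPM, for 16 classes (numbers of WT and KO cells in brackets). Points are the 2 libraries and bars 95% Poisson intervals, often narrower than the point; classes with under 20 cells in a library have no point for it. On the right the KO point lies above the WT point in all 11 classes compared, on the left in 7.

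Single nuclear members followed the class order of the set more or less closely. Of the 89 members with at least 20 UMIs in their highest WT class, 35 were highest in tumour-like cells, 18 in type 1 dendritic-like, 11 in regulatory T-like and 9 in macrophage-like cells. In KO these were 38, 15, 10 and 7 of 88. Over the 11 compared classes, 56 members were measured in every class, with a median span from lowest to highest class of 2.14-fold in WT and 2.31-fold in KO. A gene counts as measured in a class where both libraries together gave at least 100 UMIs. The 5 with the largest span (by the smaller of the spans in the 2 libraries) came from 4 complexes. Ndufc1, a small membrane subunit of complex I, was 292 CPM in tumour-like cells and 80.9 in mature dendritic-like cells of WT, and in KO 302 in tumour-like and 65.1 in gamma-delta T-like cells. Uqcr11, a small subunit of complex III, was 313 and 95.5 in the same classes of WT, and 309 and 94.6 in those of KO. Thus 2 small accessory subunits shared the same extremes in both libraries. Atp5g1 and Atp5g2 encode the same mature ring subunit of ATP synthase, and their reads can be hard to separate. Atp5g1 was 404 in tumour-like and 126 in mature dendritic-like cells of WT (416 and 111 in KO), and Atp5g2 774 in tumour-like and 211 in monocyte-like cells (810 and 275 in KO). Cox7a2l, which helps to join complexes III and IV into supercomplexes, went against the rule of tumour-like cells on top. It was highest in CD8 T-like cells of WT, at 348, and in gamma-delta T-like cells of KO, at 447, and lowest in monocyte-like cells, at 110 and 144. At the other end, Cox4i1 and Cox7c spanned 1.37-fold and 1.34-fold in WT and 1.57-fold and 1.34-fold in KO.

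Some complex IV subunits exist as paired isoforms, 1 made in most tissues and 1 named for a tissue such as heart and muscle, and here the largest difference between classes was in such an isoform. Cox6a2, known as the heart and muscle form, was 1463 CPM (236 UMIs) in the 22 plasmacytoid dendritic-like cells of WT and 1123 (620 UMIs) in the 102 of KO. It had UMIs in 18 of 22 and 84 of 102 of those cells (81.8% and 82.4%), with at most 38 in any cell. The next highest class was at 1.33 CPM in WT (tumour-like) and 2.13 in KO (monocyte-like), the former from 40 UMIs, 14 of them in 1 cell, and the latter from 3. Of CD8 T-like cells, 0 of 421 in WT had a Cox6a2 UMI, which allows a share of cells with a UMI, not of cells expressing the gene, of up to 0.872%, and of macrophage-like cells 1.02% in WT and 1.53% in KO. Macrophage-like cells were the deeper ones, with medians of 9472 and 7233 UMIs against 8410 and 4166 in plasmacytoid dendritic-like cells. At an equal depth of 2000 UMIs per cell, 71.4% of the plasmacytoid dendritic-like cells in WT and 76.1% in KO still had one. Both libraries gave this pattern, and the 22 WT cells were the smaller sample. Cox6a1, the widespread form, was in contrast present everywhere, for example at 310 and 266 in plasmacytoid dendritic-like cells and at 402 and 398 in macrophage-like cells. The plot of both isoforms sets these side by side.

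**Figure D2:**
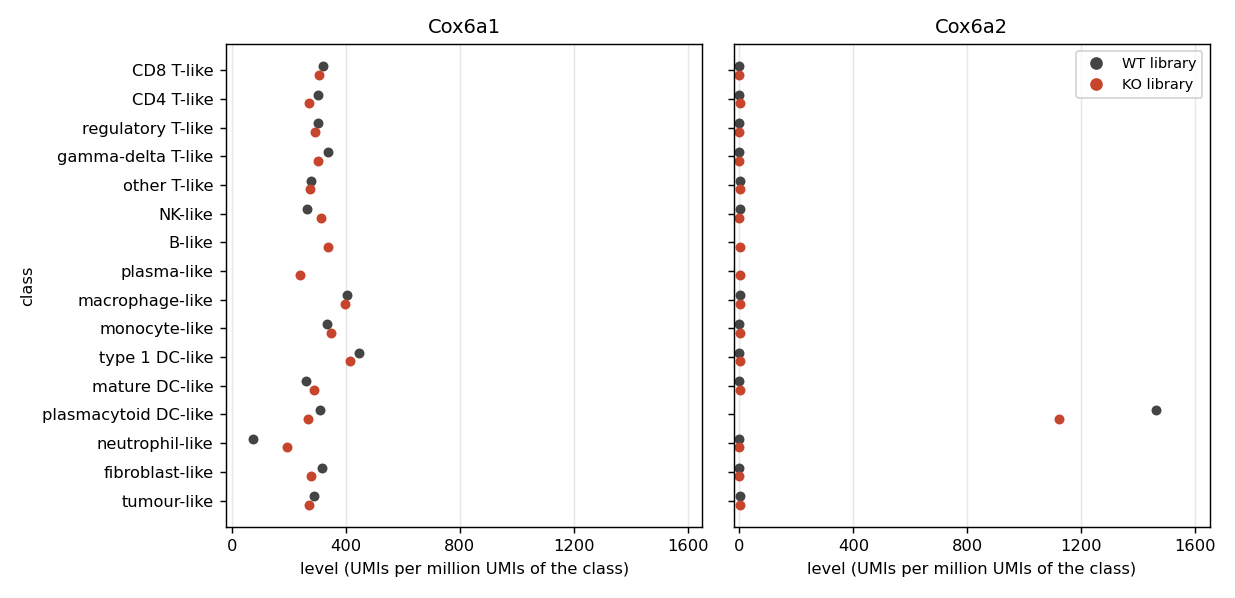
Level of Cox6a1 (left) and Cox6a2 (right), in CPM, in 16 classes and both libraries (points; no bars drawn). Cox6a1 is present in every class drawn, while Cox6a2 stands at 1463 and 1123 in plasmacytoid dendritic-like cells and near 0 elsewhere.

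The other tissue or stress isoforms were low throughout. Cox7a1, a muscle form, was highest in macrophage-like cells, at 7.58 CPM in WT and 6.55 in KO, and Cox4i2, a form known from hypoxic tissue, was 1.34 and 1.86 there. Cox6b2, named as a testis form, was 5.30 in WT and 6.40 in KO monocyte-like cells. Ndufa4l2, the hypoxia-induced relative of Ndufa4, was 4.74 and 12.3 in fibroblast-like cells, from 13 UMIs in each library. Cox8b had no UMI in any kept cell, and Cox7b2 and Cox8c had 7 and 2 in WT and 0 in KO. With Ndufb11b, at 0, these were the 4 members under 100 UMIs over all kept cells. Against these, Cox4i1 was 750 and 763 in macrophage-like cells, Cox6b1 453 and 473, and Ndufa4, a complex IV subunit despite its name, ran from 129 and 213 in mature dendritic-like to 655 and 557 in tumour-like cells. None of the low forms had counts that allow a comparison between libraries in more than a few classes.

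The main contrast between the libraries lay between the 2 genomes. The mitochondrially encoded set was higher in KO than in WT in all 11 classes, by a log2 difference of 0.02 to 0.61 with a median of 0.31, and the nuclear set was higher in 7 of 11 and lower in 4. In CD8 T-like cells (421 WT, 698 KO) the mitochondrially encoded set was 19222 CPM in WT (95% interval 19054 to 19392) and 25551 in KO (25388 to 25715), a log2 difference of 0.41 (0.39 to 0.43), or 32.9% more. The nuclear set of the same cells was 18509 CPM in WT (18344 to 18675) and in KO 17776 (17640 to 17913), a log2 difference of -0.06 (-0.08 to -0.04). The median over all 6743 genes measured in these cells was -0.11, and relative to that median the nuclear set stood at 0.05 and the mitochondrially encoded set at 0.52. The sign of the small nuclear difference therefore turned with the scaling, and was 0.07 when UMIs of mitochondrial, ribosomal protein, antibody and haemoglobin genes were left out of the total, while the mitochondrially encoded set kept its sign under every setting tried in CD8 T-like cells. With clusters in place of gates (437 WT and 449 KO cells) the nuclear set was at 0.16 and the mitochondrially encoded set at 0.21. The plot of all mitochondrially encoded genes shows how far this reached.

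CD4 T-like cells had the largest difference of the mitochondrially encoded set, 17091 in WT and 26159 in KO (log2 0.61), with the nuclear set at 15991 and 16860 (0.08). Gamma-delta T-like cells were at 17699 and 26259 (0.57), regulatory T-like cells at 15468 and 19688 (0.35), other T-like cells at 20815 and 25847 (0.31) and NK-like cells at 16988 and 20264 (0.25). The T-like and NK-like classes thus all had more mitochondrially encoded RNA in KO. Myeloid classes had smaller or similar differences. Mature dendritic-like cells were at 10704 and 13584 (0.34), monocyte-like cells at 12578 and 14989 (0.25), and macrophage-like cells at 15827 (15785 to 15869) and 16871 (16791 to 16951), a log2 difference of 0.09 (0.08 to 0.10). Fibroblast-like cells were at 11741 and 12457 (0.09) and tumour-like cells at 12558 and 12708 (0.02), and in tumour-like cells the sign turned when every cell counted equally (-0.08) or was thinned to 2000 UMIs (-0.11). Plasmacytoid dendritic-like cells, too few in WT to be compared, had 22867 in WT and 28286 in KO.

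Gene by gene, the mitochondrially encoded members of complex I and cytochrome b differed most. In CD8 T-like cells all 12 members with enough UMIs were higher in KO, and 3 of them by at least 1.5-fold, against 3.66% of all measured genes. These 3 were mt-Nd2, with 841 CPM in WT and 1346 in KO (log2 0.68, 0.61 to 0.75), mt-Nd4l, with 243 and 384 (0.66, 0.52 to 0.80), and mt-Nd3, with 186 and 282 (0.60, 0.44 to 0.76). All 3 encode membrane subunits of the proton-pumping arm of complex I. mt-Nd1, which lies where that arm meets the quinone site, was 1136 and 1658 (0.55), mt-Nd4 1563 and 2218 (0.50), and mt-Nd5 630 and 836 (0.41). mt-Cytb, cytochrome b and the sole mitochondrially encoded subunit of complex III, was 1708 and 2496 (0.55). The catalytic subunits of complex IV were nearer together: mt-Co1, the site of oxygen reduction, was 3657 and 4330 (0.24), mt-Co2 2875 and 3788 (0.40), and mt-Co3 3850 and 5012 (0.38). mt-Atp6, the proton channel subunit of ATP synthase, was 2467 and 3124 (0.34), and mt-Atp8 59.7 and 65.4, where the interval of the difference spans 0 (0.13, -0.17 to 0.43). mt-Nd6, alone encoded on the light strand, had only 16 and 47 UMIs. Summed by complex, the mitochondrially encoded part of complex I was 4606 and 6736 (0.55), that of complex IV 10382 and 13130 (0.34) and that of complex V 2526 and 3189 (0.34).

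**Figure D3:**
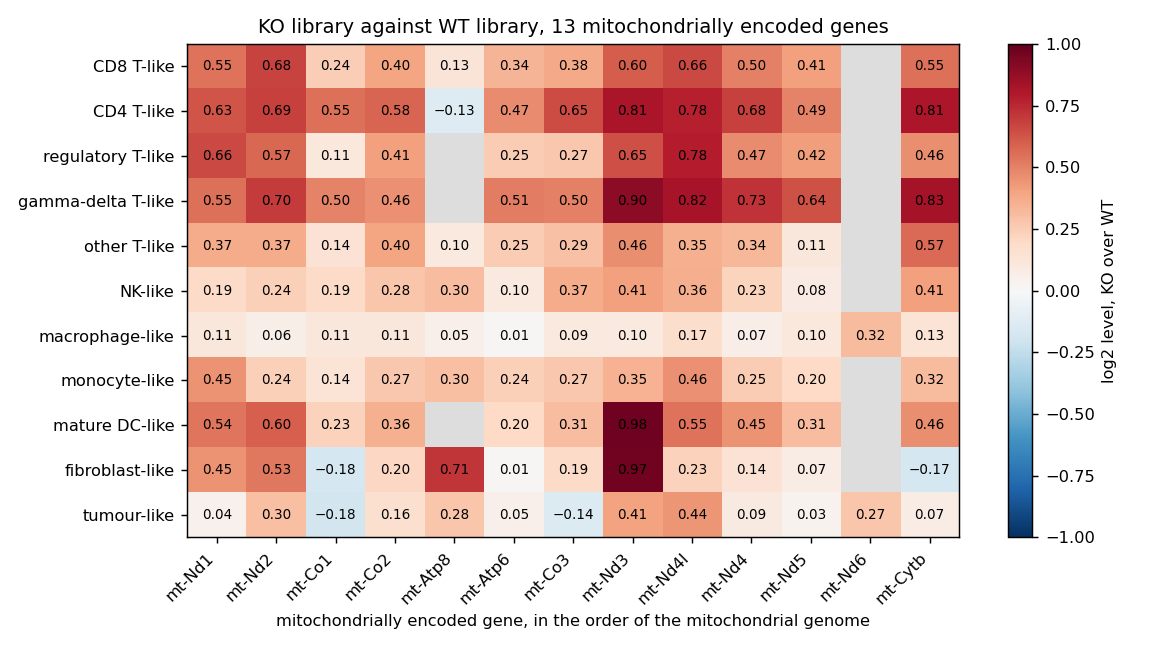
Log2 difference between KO and WT of the 13 mitochondrially encoded genes (columns, in genome order) in 11 classes (rows), with the value written in each cell; grey cells had under 100 UMIs. Nearly all cells are red (higher in KO), and the few blue ones fall on mt-Atp8, mt-Co1, mt-Co3 and mt-Cytb. CD4 T-like and gamma-delta T-like cells have the largest medians (0.64 each). The largest single values are in mature dendritic-like (0.98) and fibroblast-like cells (0.97).

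The order of the genes differed between classes. Over the 11 classes the median log2 difference was 0.60 for mt-Nd3, 0.53 for mt-Nd2, 0.46 for mt-Nd4l and mt-Cytb, 0.45 for mt-Nd1, 0.36 for mt-Co2, 0.34 for mt-Nd4, 0.29 for mt-Co3, 0.24 for mt-Atp6, 0.20 for mt-Nd5 and 0.14 for mt-Co1. In macrophage-like cells mt-Nd2 was among the lower ones, at 0.06, and mt-Nd3 (0.10) lay below mt-Co1 and mt-Co2 (0.11 each). Overlap limits some of these values, since mt-Atp8 and mt-Atp6 share 43 bases, mt-Nd4l and mt-Nd4 share 7 and mt-Nd5 and mt-Nd6, on opposite strands, share 14. In tumour-like cells the genes parted: mt-Co1 was 2236 in WT and 1969 in KO (log2 -0.18) and mt-Co3 2411 and 2191 (-0.14), while mt-Nd4l was 173 and 235 (0.44), mt-Nd3 66.1 and 87.6 (0.41) and mt-Nd2 394 and 485 (0.30). The small difference of the summed set in tumour-like cells was thus a balance of genes that were higher and lower. mt-Cytb there was 2342 and 2461, well above the 1190 and 1305 of macrophage-like cells, whereas mt-Co1 stood lower in tumour-like than in macrophage-like cells (3208 and 3463). Tumour-like cells therefore had not only less mitochondrially encoded RNA but another mix of it, in both libraries. The genes also parted in fibroblast-like cells, where 10 of 12 measured were higher in KO and 2 lower (log2 -0.18 to 0.97).

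Other properties of the cells moved with the difference in CD8 T-like cells. Lef1 and Ccr7 are known from resting T cells of lymphoid tissue, and cells with a UMI of either were 220 of 421 (52.3%) in WT and 473 of 698 (67.8%) in KO. In the cells with a Lef1 or Ccr7 UMI the mitochondrially encoded set was 19073 CPM in WT and 26623 in KO (log2 0.48), and the nuclear set 19277 and 17109 (-0.17). In the 201 and 225 cells without such a UMI they were 19438 and 22186 (0.19), and 17399 and 19872 (0.19). The mitochondrially encoded set was thus higher in KO on both sides of the split, while the nuclear set was lower in KO among cells with these markers and higher among the rest. Pdcd1, which encodes the inhibitory receptor PD-1, gave a further split of the class. Among the 288 and 143 cells with a Pdcd1 UMI the nuclear set differed by 0.15 and the mitochondrially encoded set by 0.24, and among the 133 and 555 without by -0.03 and 0.49. Detecting such UMIs depends on the depth of a cell, and neither split was matched for depth. CD4 T-like cells with a Lef1 or Ccr7 UMI were 54.9% in WT and 74.6% in KO, and in those without the mitochondrially encoded set still differed by 0.55 and the nuclear set by 0.17. Markers used here for other cell types differed too within the CD8 T-like class, in both directions. The 8 of macrophages summed to 179 CPM in WT and 74.9 in KO and the 7 of NK cells to 463 and 227, while the 6 of B cells summed to 4.62 and 48.5, those of plasma cells to 23.5 and 64.3, those of neutrophils to 3.08 and 27.0 and those of mature dendritic cells to 350 and 438. Of the B-cell markers 4 were at 0 in WT and none in KO. Some of these markers are also made by T cells. The mature dendritic markers include Ccr7, used above for resting T cells, and the NK markers include Prf1 and Eomes. Those sums need not be RNA of other cell types. Genes of dissociation and stress, such as Fos and Hspa1a, were higher in KO in 8 of 10 measured (median log2 0.31, 2706 CPM in WT and 3290 in KO). Of 4 nuclear-retained RNAs measured, 2 were higher and 2 lower in KO (median 0.02), with Malat1 at 0.19. In other classes the stress genes were higher in 7 of 8 (regulatory T-like, 0.58), 9 of 10 (mature dendritic-like, 0.77), 7 of 11 (macrophage-like, 0.04) and 4 of 10 (tumour-like, -0.15). They were higher in 8 of 10 (CD4 T-like, 0.20), 9 of 11 (other T-like, 0.34) and 6 of 11 (monocyte-like, 0.06). Fewer were higher in gamma-delta T-like (3 of 7, -0.16), NK-like (4 of 9, -0.01) and fibroblast-like cells (3 of 11, -0.36). Of all measured genes, 35.5% were higher in KO in CD8 T-like cells and 38.8% to 47% in the other classes. How much of the differences between the libraries such shifts carry was not tested.

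Depth per cell was a further difference between the libraries, and mattered most in tumour-like cells. In CD8 T-like cells the mitochondrially encoded set differed by 0.36 among cells of 1000 to 3000 UMIs, by 0.46 among those of 3000 to 6000, by 0.39 among those of 6000 to 12000 and by 0.14 among those of 12000 to 24000, where only 29 WT and 22 KO cells remained. In tumour-like cells it was 31359 in WT and 20223 in KO among cells of 6000 to 12000 UMIs (-0.63, 73 and 101 cells), 18961 and 13470 among those of 12000 to 24000 (-0.49, 235 and 313 cells), but 10863 and 11924 among those of 24000 or more (0.13, 686 and 430 cells). Cells of 24000 UMIs or more made up 68.3% of tumour-like cells in WT and 49.2% in KO. In the shallower ranges the tumour-like cells of KO thus had less mitochondrially encoded RNA, a difference that the sum over the class does not show. Over the 32 ranges of a class with at least 20 cells in each library, the mitochondrially encoded set was higher in KO in 28 and lower in 4, and higher in every range of 8 of the 11 classes. The nuclear set was higher in 21 ranges and lower in 11, and higher in every range of 3 classes. Macrophage-like cells of 3000 to 6000 UMIs were among the ranges where the mitochondrially encoded set was lower in KO, at 18561 and 17095 (-0.12).

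**Figure D4:**
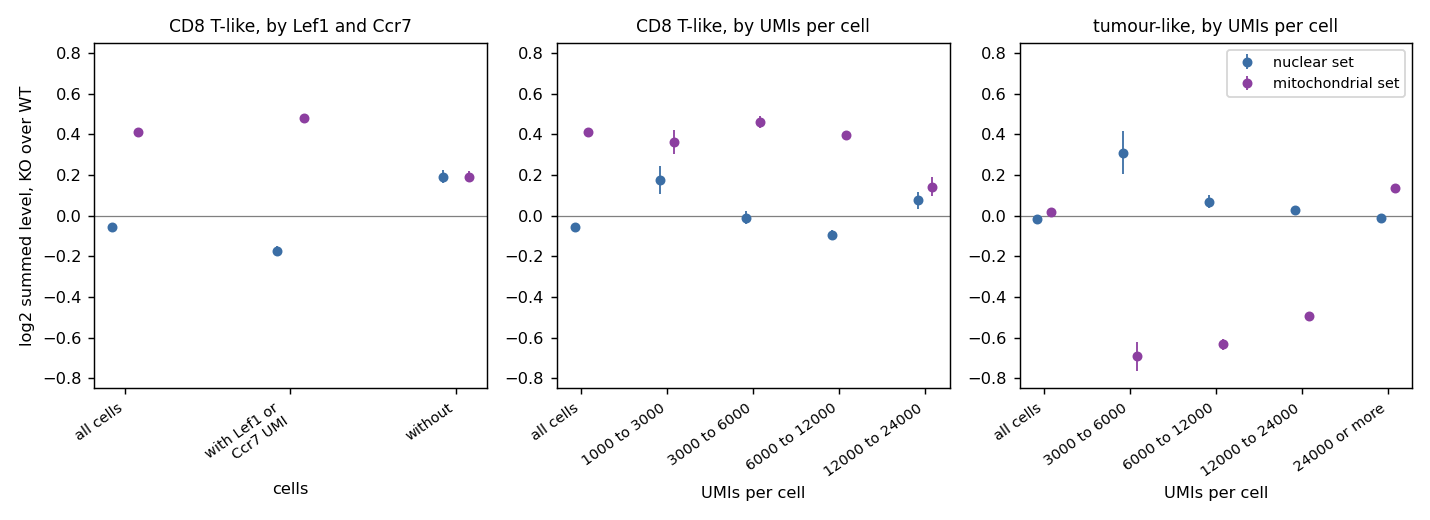
Log2 difference between KO and WT (vertical axis, with 95% intervals) of the nuclear set (blue) and the mitochondrially encoded set (purple). CD8 T-like cells are split by UMIs of Lef1 or Ccr7 (left) and by UMIs per cell (middle), and tumour-like cells by UMIs per cell (right), where the mitochondrially encoded set is at -0.69, -0.63, -0.49 and 0.13 from the shallowest to the deepest cells. The shallowest range of tumour-like cells, 3000 to 6000 UMIs, held only 11 WT and 29 KO cells.

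The nuclear members of CD8 T-like cells differed by small amounts in both directions. Of 101, 87 had enough UMIs, of which 34 were higher and 53 lower in KO, with a median of -0.06. Of all measured genes, 35.5% were higher in KO. No nuclear member reached 1.5-fold in either direction, against 3.66% of all genes higher and 11.6% lower, genes that were not matched to the members for level. By complex, the summed nuclear level in CD8 T-like cells was 5029 and 4783 CPM for complex I (log2 -0.07), 352 and 318 for complex II (-0.15), 1799 in both libraries for complex III, 5226 and 4847 for complex IV (-0.11) and 5831 and 5757 for complex V (-0.02), and the assembly factors were at 272 in both. Complex IV was the least balanced, with 1 of its 12 measured nuclear members higher in KO, and that 1 was Cox7a2l. Complex I had 13 of 37 higher, complex III 4 of 8 and complex V 9 of 17.

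The members named next are, in each direction, those whose interval lay farthest from 0. Higher in KO among CD8 T-like cells were Atp5mpl, a small subunit of ATP synthase (195 in WT and 250 in KO CPM, log2 0.36, 0.20 to 0.52), Cox7a2l (348 and 420, 0.27), Ndufa10, an accessory subunit of complex I (80.1 and 103, 0.36), Ndufaf4, which assists the building of complex I (24.3 and 34.0, 0.49), and Ndufa6 (151 and 176, 0.22). Lower in KO were Cox7a2 (295 and 231, -0.35, -0.50 to -0.21), Ndufb8 (200 and 156, -0.36), Cox8a (760 and 643, -0.24), Ndufa13, also known as GRIM-19 (379 and 316, -0.26), and Atp5d, the delta subunit of ATP synthase (526 and 447, -0.23). Cox7a2 and Cox7a2l, related proteins with different places in the chain, thus stood on opposite sides. Over the 11 alternative settings, Atp5mpl stayed between 0.35 and 0.62, Ndufa10 between 0.33 and 0.73, Ndufaf4 between 0.36 and 0.71, and Ndufa13 between -0.38 and -0.01. Cox7a2l reached -0.07, Ndufa6 -0.01, Cox7a2 0.03, Ndufb8 0.04, Cox8a 0.03 and Atp5d 0.08, so their direction depended on the setting.

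The catalytic and core subunits of CD8 T-like cells differed by small amounts in both directions. Sdha, the flavoprotein that oxidises succinate, was 62.4 and 68.6 CPM (log2 0.14), and its iron-sulfur partner Sdhb 172 and 142 (-0.28, -0.47 to -0.10). The membrane anchors Sdhc and Sdhd were 55.4 and 46.0 (-0.27), and 61.6 and 61.8 (0.01). Among the 4 subunits of this single enzyme, Sdhb was lower, Sdhc leaned lower, Sdhd was level, and the interval of Sdha spans 0. The signs of Sdha, Sdhb and Sdhc also turned under some settings. In complex I, Ndufs1, which carries iron-sulfur clusters, was 30.8 and 28.9 (-0.09), and Ndufv1, which holds the NADH site, 56.6 and 58.8 (0.06). In complex III, Uqcrc1 was 105 and 121 (0.21) and the Rieske protein Uqcrfs1 164 and 182 (0.16). Cox5a of complex IV was 440 and 382 (-0.20), and the catalytic alpha and beta subunits of ATP synthase, Atp5a1 and Atp5b, were 271 and 280 (0.05) and 335 and 353 (0.07).

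Macrophage-like cells, the largest class in WT, leaned slightly the other way for the nuclear set. It was 18929 CPM in WT (18884 to 18975) and 19588 in KO (19502 to 19674), a log2 difference of 0.05 (0.04 to 0.06), and was above 0 under all 11 alternative settings. By depth it was 0.29 among cells of 1000 to 3000 UMIs, 0.13 among those of 3000 to 6000, 0.064 among those of 6000 to 12000, -0.0031 among those of 12000 to 24000 and 0.064 above. Of 93 measured nuclear members, 69 were higher and 24 lower in KO, while 42.5% of all 10944 measured genes were higher. None reached 1.5-fold, against 2.02% of all genes higher and 4.2% lower. The summed log2 difference was largest for complex II, with 0.04 for complex I, 0.15 for complex II and 0.05 for each of complexes III, IV and V. Higher in KO were Atp5g2 (374 and 459, 0.30), Sdhd (63.8 and 80.6, 0.34), Ndufb4 (52.4 and 65.6, 0.32), Uqcrc2 (61.0 and 73.4, 0.27) and Atp5c1, the gamma subunit that turns within ATP synthase (233 and 266, 0.19). All 4 Sdh subunits were higher, Sdha at 71.7 and 73.7, Sdhb at 178 and 194 and Sdhc at 89.3 and 98.5, although Sdha and Sdhb turned sign under some settings. Lower were Ndufa4 (315 and 262, -0.27), Ndufs6 (125 and 113, -0.14), Ndufa2 (267 and 248, -0.10), Ndufb7 (186 and 173, -0.11) and Atp5md (303 and 286, -0.08). These 10 genes kept their direction over the 11 settings. All 13 mitochondrially encoded genes were higher in KO macrophage-like cells, from mt-Atp6 at 1955 and 1968 (0.01, an interval of -0.01 to 0.03) to mt-Nd6 at 198 and 72 UMIs (0.32, -0.09 to 0.72), and 11 of them turned sign in the depth window or another setting.

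NK-like and other T-like cells leaned towards KO for the nuclear set. In NK-like cells it was 16588 in WT and 18290 in KO (log2 0.14, 0.12 to 0.16), with 68 of 83 measured members higher, while 41.6% of all genes were. By at least 1.5-fold, 6 members were higher, against 3.68% of all genes higher. Ndufab1, the mitochondrial acyl carrier protein that is also a complex I subunit, was 65.2 and 108 (0.73), and Ndufaf4 23.8 and 43.6 (0.87). Ndufs4, a late-assembled complex I subunit, was the lower one, at 204 and 162 (-0.33). Other T-like cells were alike in the sum, with 15922 and 17380 (0.13), and 68 of 83 members were higher (42.2% of all genes). By at least 1.5-fold, 4 members were higher, among them Ndufa12 (59.9 and 92.9, 0.63). That is a smaller share than the 6.74% of all genes. Lower in other T-like cells were Cox8a (659 and 557, -0.24) and Ndufb7 (180 and 142, -0.34). With cells assigned by clusters in place of gates, the value of NK-like cells was 0.14 and that of other T-like cells -0.02, and with 1 more marker in the gate they were 0.08 and 0.15.

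The remaining lymphoid and myeloid classes had weaker leans. In CD4 T-like cells 51 of 80 members were higher (45% of all genes), in regulatory T-like cells 41 of 71 (42%), in monocyte-like cells 52 of 81 (47%) and in mature dendritic-like cells 42 of 72 (42.9%). In gamma-delta T-like cells, with 69 KO cells, only 17 of 56 were higher (38.8% of all genes), with a median of -0.16 against -0.14 for all measured genes. The sum over the set there was 16126 and 15398 (-0.07), and turned to 0.05 with no doublet left out, 0.06 with 1 more marker in the gate, 0.07 under either the centred or the reduced scaling and 0.13 with clusters. Named members included Ndufs3 in CD4 T-like cells (58.0 and 93.7, 0.69), Atp5md in regulatory T-like cells (223 and 320, 0.52) and in gamma-delta T-like cells (356 and 231, -0.63), and Cox7a2l in gamma-delta T-like cells (265 and 447, 0.75). Atp5md, a small ATP synthase subunit, thus pointed in opposite directions in 2 T-like classes. In mature dendritic-like cells Ndufa4 was 129 and 213 (0.72), whereas it was lower in KO macrophage-like and tumour-like cells. Ndufb4 was 37.1 and 54.8 (0.56) in monocyte-like cells and 50.2 and 89.7 (0.84) in mature dendritic-like cells, and Atp5d was lower in the latter, at 390 and 259 (-0.59). The plot of nuclear members shows every measured gene of these classes.

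**Figure D5:**
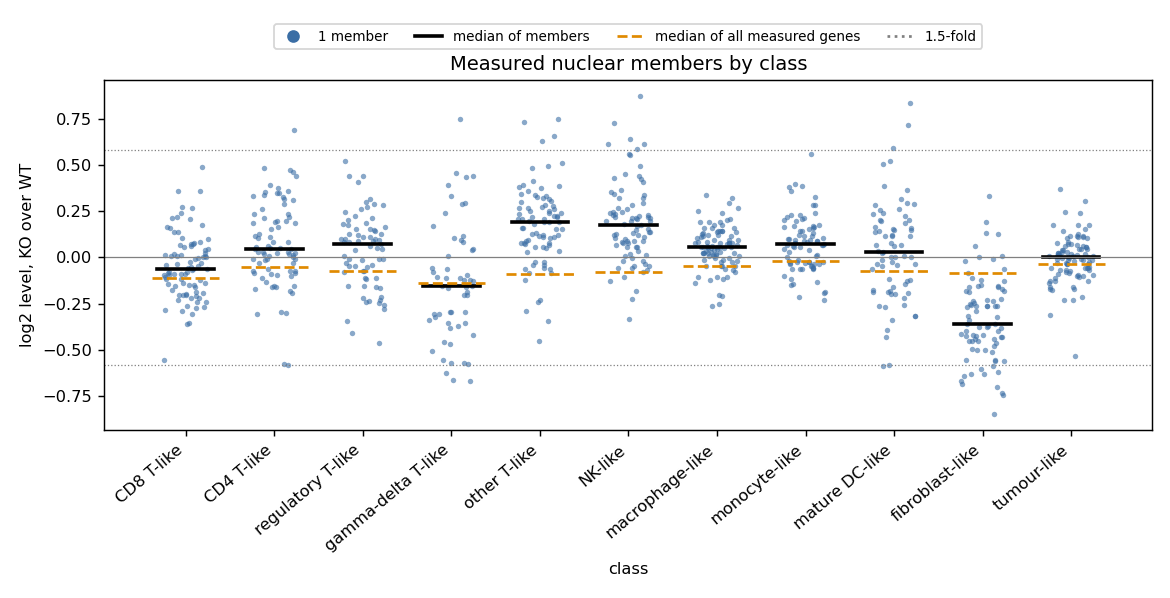
Log2 difference between KO and WT for each measured nuclear member (points) in 11 classes, with the members' median (black) and the median of all measured genes (dashed). The members' median lies above that of all genes in 9 of the 11 classes, and is furthest below it in fibroblast-like cells, at -0.36.

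Fibroblast-like cells stood apart, with the nuclear set lower in KO. It was 17575 in WT and 14023 in KO (log2 -0.33, -0.35 to -0.30). Only 7 of 82 measured members were higher, while 43% of all genes were. By at least 1.5-fold, 12 of the 82 were lower, a share close to the 13.6% of all genes. Cox7a2 was 378 and 235 (-0.69) and Ndufb9 340 and 218 (-0.64). The cells in this class were not alike in the 2 libraries: fibroblast markers summed to 14474 and 39353 CPM, tumour markers to 899 and 358 and macrophage markers to 204 and 809, and with clusters in place of gates the difference was 0.05. By depth, the nuclear set was at 0.02 in cells of 1000 to 3000 UMIs and 0.19 at 3000 to 6000. It was at -0.42 at 6000 to 12000, -0.26 at 12000 to 24000 and 0.03 at 24000 or more. The shallowest ranges held 14 and 18 WT cells and the deepest 7 KO cells. Cells of 24000 UMIs or more were 24.9% of the class in WT and 6.25% in KO. The part of these differences between the cells in the result was not tested.

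In tumour-like cells, which carry Dusp2 in both libraries, the nuclear set was 22576 and 22311 (log2 -0.02), with 47 of 93 measured members higher, while 44.6% of all genes were. No member reached 1.5-fold, against 2.88% of all genes higher and 5.74% lower. The named ones were small shifts: Ndufb4 was 62.0 and 80.2 (0.37), Sdhd 61.0 and 75.3 (0.30), Ndufa4 655 and 557 (-0.23) and Ndufv2 128 and 109 (-0.23). Ndufb4 and Sdhd were higher and Ndufa4 was lower in KO in both tumour-like and macrophage-like cells. Ndufb4 counts may be shared with near-identical gene copies. Atp5mpl was higher in KO in all 11 classes, with a median of 0.29 and an interval above 0 in 7 of them. It stayed above 0 under the 11 settings in CD8 T-like and macrophage-like cells. Ndufa13 was lower in KO in all 11 classes, tumour-like cells included, with a median of -0.16. Its interval lay below 0 in only 4 of them, and the value nearest 0 was -0.000996. The sign of Ndufa13 turned under some settings in macrophage-like cells, and only CD8 T-like and macrophage-like cells were checked for this.

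Other genes of mitochondrial and energy metabolism, taken from lists outside the rule, showed where the respiratory chain stood among its neighbours. In CD8 T-like cells 10 of 17 measured genes of the tricarboxylic acid cycle were higher in KO and 7 lower (median log2 0.03), 37 of 74 genes of the mitochondrial ribosome were higher (-0.01), and 9 of 13 of mitochondrial import (0.07). Of the factors that assemble complex IV, 2 of 11 were higher (-0.19), which is the direction of its nuclear subunits. Glycolysis genes were mostly lower, 13 of 15 (-0.19), and genes of the cytosolic ribosome mostly higher, 78 of 83 (0.33), to be read against the median of -0.11 over all genes of the class. In NK-like cells the mitochondrial ribosome (46 of 56 higher, 0.25), import (12 of 13, 0.20) and glycolysis (11 of 13, 0.36) were higher along with the nuclear set. In macrophage-like cells they were 61 of 78 (0.11), 10 of 13 (0.08) and 11 of 15 (0.15), and the cytosolic ribosome was higher in 79 of 87 (0.16).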

How the data were processed

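Each library was deposited by the authors as a matrix of raw counts (UMIs for every gene in every cell barcode). The submitters' processing notes list Cell Ranger 6.0.1, Seurat 4.0.3 and 4.0.4 and the build mm10, whereas Cell Ranger 8.0.1 stands in the matrices, per the file headers. No source used here gives the annotation release or whether counting used strand. Barcodes with under 200 genes (20 WT, 6 KO) or over 20% mitochondrial UMIs (122 WT, 105 KO) were left out. So were, as doublets, the highest Scrublet scores (scanpy 1.11.5), 0.8% per 1000 barcodes (782 WT, 1299 KO), since the automatic threshold called 124 and 0. The mitochondrial limit acts on members and was varied.

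Cells were gated by the number of marker genes with a UMI (3 of 6 T-cell genes, 5 of 8 macrophage genes and the like), limits chosen after seeing how many cells carry each marker. Cells of 2 lineages (194 and 469) were left out, and 17.9% and 20.6% met no gate. Counts were added up within each class of a library and divided by the class total. The 95% intervals are exact Poisson ones and, for a ratio, conditional ones (scipy 1.17.1). UMIs mark molecules at transcript 3' ends, so levels were compared for the same genes between classes and libraries. A fold of 1.5 serves as a description, and the shares of all measured genes given beside members were not matched for level. Named genes are the mitochondrially encoded members, isoform pairs, core subunits, the 5 members of largest span over classes, and those with intervals farthest from 0 (5 per direction in CD8 T-like and macrophage-like cells, up to 2 elsewhere). The members, lists and markers were chosen with earlier results of these data known. The scripts were tested on simulated counts. Reads of near-identical copies (Atp5g1, Atp5g2 and Atp5g3, Cox5b, Ndufb4) are uncertain. Some genes that the rule for named genes picks are not reported here.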

Additional observations from a re-analysis of the deposited data

How the results depend on the processing

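No paired analysis was possible because each genotype has 1 library. Splits by depth and by Lef1 or Ccr7 UMIs were chosen after seeing the data. The nuclear set of CD8 T-like cells (log2 -0.06) was 0.071 scaled without mitochondrial, ribosomal protein, antibody and haemoglobin genes, 0.053 centred on the median gene, -0.0094 with every cell weighted equally, -0.030 thinned to 2000 UMIs, -0.032 with 1 more marker in the gate, 0.16 with Leiden clusters, -0.011 in cells of 3000 to 6000 UMIs, and -0.17 and 0.19 in cells with and without a Lef1 or Ccr7 UMI. The mitochondrially encoded set there (0.41) was 0.54, 0.52, 0.45 (thinned), 0.35, 0.21, 0.46, 0.48 and 0.19 under the settings in that order, except equal weights, and 0.43 with no doublet left out. In macrophage-like cells the nuclear set (0.05) was 0.075 scaled without those genes, 0.098 centred, 0.061 weighted equally, 0.068 thinned, 0.030 with clusters and 0.13 in the depth window. The mitochondrially encoded set (0.09) was 0.12, 0.14, 0.062, 0.044, 0.045 and -0.12 under the same settings, and 0.11 with no doublet left out. In the depth window 6 of 7 classes had the mitochondrially encoded set higher in KO. With at least 20 UMIs as the filter, 1 of 91 nuclear members was at least 1.5-fold lower in KO in CD8 T-like cells and 2 of 97 higher in macrophage-like cells. No share of all genes at that filter is given beside these counts, so nothing is read from them about the members. The cause of these moves was not tested. Of 46 named genes in CD8 T-like cells, 445 of 506 values under the alternatives kept the sign, and of 49 in macrophage-like cells 498 of 539. With 1 library each, genotype, library, depth and the labelled molecule cannot be told apart.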

Other observations

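The share of UMIs that came from each set was also taken cell by cell. The median cell of the CD8 T-like class gave 1.69% of its UMIs to the nuclear set in WT and 1.65% in KO, and 1.85% and 2.45% to the mitochondrially encoded set. The median tumour-like cell gave 2.23% and 2.18% to the nuclear set and 1.13% in both libraries to the mitochondrially encoded set. Neutrophil-like cells, short-lived cells known for few mitochondria and for living on glycolysis, were lower, with 0.413% and 0.736% for the nuclear set and 0.179% and 0.187% for the mitochondrially encoded set, from 34 and 20 cells. Summed over all neutrophil-like cells, the mitochondrially encoded set was instead above the nuclear set in WT. It had 1.39 UMIs per nuclear-set UMI there and 0.601 in KO, so median cell and sum differed in WT.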
